A study of Rattus norvegicus with 28 samples.

Results

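Neuropeptide precursor genes of the rat hippocampus were followed across sham injury, traumatic brain injury (TBI) and injury with an antidepressant. The 10 genes were Npy, Sst, Penk, Pdyn, Vip, Cck, Tac1, Crh, Gal and Nts. They were represented by 14 of the 30367 non-control probes of the gene expression array, found by matching each probe's accession to a gene symbol. All 14 probes passed the filter on dim probes, which 17322 probes passed in all. Npy, Tac1, Crh and Gal had 2 probes each, and the probe with the highest mean signal stood for the gene.

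The arrays came from adult male Sprague-Dawley rats, and whole-hippocampus RNA was taken 24 h after surgery. Sham rats (2 arrays) were prepared for injury but not injured. TBI rats (3 arrays) received a severe parasagittal fluid-percussion injury, in which a pulse of fluid is driven onto the dura. The other 3 groups of 3 arrays received the same injury and, 1 h later, imipramine (a tricyclic antidepressant), Prozac (fluoxetine) or Zoloft (sertraline), both of which are selective serotonin reuptake inhibitors. All 14 arrays were of different rats per the labels. No group was a sham-injured rat given a drug, so each drug was seen in injured tissue only.

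Neuropeptides are made as larger precursors, cut and amidated in the secretory pathway, stored in dense-core vesicles and released on strong firing to act on G protein-coupled receptors. In the hippocampus most of these precursors are products of GABAergic interneurons, while granule cells of the dentate gyrus make dynorphin and enkephalin, and galanin is best known there from incoming noradrenergic fibres and from its induction by nerve injury. Precursor mRNA is therefore read in a bulk sample as a sum over the cells that make it. Fewer cells of a type cannot be told apart from less RNA per cell.

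Values below are levels on the log2 scale, in which the processed signal of a probe is divided by the signal at the 75th percentile among that array's probes above background, so that 0 is the level of that percentile. A difference of 1 on this scale is a change of 2-fold. Adjusted p-values come from a limma fit over all 14 arrays and all 17322 probes with Benjamini-Hochberg adjustment, and a gene was called when this value was under 0.05. Levels are compared between arrays and never between genes, since probes differ in brightness.

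Arrays had 14676 to 18196 probes above background, with the fewest on TBI replicate 1. The 3 TBI arrays shared a slide with Prozac replicate 1, the other 8 drug arrays shared a slide, and the 2 Sham arrays lay on a slide of their own. Per the file headers, the Sham arrays were also scanned on a different day from all the injured arrays. Slide, scan day and injury therefore cannot be told apart in any comparison with Sham. In comparisons with TBI, imipramine and Zoloft each coincide with slide, and Prozac replicate 1 is the only array that links the slides. Of 10 markers of hippocampal principal neurons, 8 were measured, among them Neurod6, Bok, Fibcd1 and Wfs1, while Prox1 and Tdo2 were above background on 0 arrays. The median difference of all probes was 0.00 for TBI against Sham and 0.01 for Zoloft against TBI, but 0.20 for imipramine and 0.15 for Prozac against TBI, and 0.18 and 0.14 for these 2 drugs against Sham. Where a gene is called in a comparison with such a shift, the difference beyond that shift, gene minus median, is also given.

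The promoter windows of Sst, Gal and Pdyn are shown because these were the 3 genes with a call in any comparison. Sequences are those of RefSeq on GRCr8, from 120 bases before to 20 bases after the annotated start, read 5′ to 3′ on the gene's strand. Capitals mark the cAMP response element TGACGTCA in Sst, its shorter form TGACG and the TATA motif TATAAA in Gal, and TATAAA in Pdyn.
Sst, chr11:90461426-90461565, plus strand: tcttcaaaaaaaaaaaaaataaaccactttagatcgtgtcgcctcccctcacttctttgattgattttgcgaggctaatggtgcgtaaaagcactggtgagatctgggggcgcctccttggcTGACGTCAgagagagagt
Gal, chr1:210084553-210084692, minus strand: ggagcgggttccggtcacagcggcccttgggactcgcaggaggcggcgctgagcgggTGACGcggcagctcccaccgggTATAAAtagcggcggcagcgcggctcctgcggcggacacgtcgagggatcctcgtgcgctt
Pdyn, chr3:137366484-137366623, minus strand: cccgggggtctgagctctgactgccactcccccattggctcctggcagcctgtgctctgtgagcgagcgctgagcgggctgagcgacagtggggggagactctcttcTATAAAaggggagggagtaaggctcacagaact
The motifs were searched on both strands from 250 bases before to 50 bases after the start, and 7 of the 10 genes had an entry. TGACGTCA was found in 1.83% of all 33469 promoters and, of the 7, in Sst alone. TGACG, which TGACGTCA contains, was found in 21.2% of all promoters and in Sst, Vip, Tac1, Gal and Nts. TATAAA was found in 14.2% of all promoters and in Pdyn, Vip and Gal. A match is a run of letters and was not tested as a binding site.

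**Figure D1:**
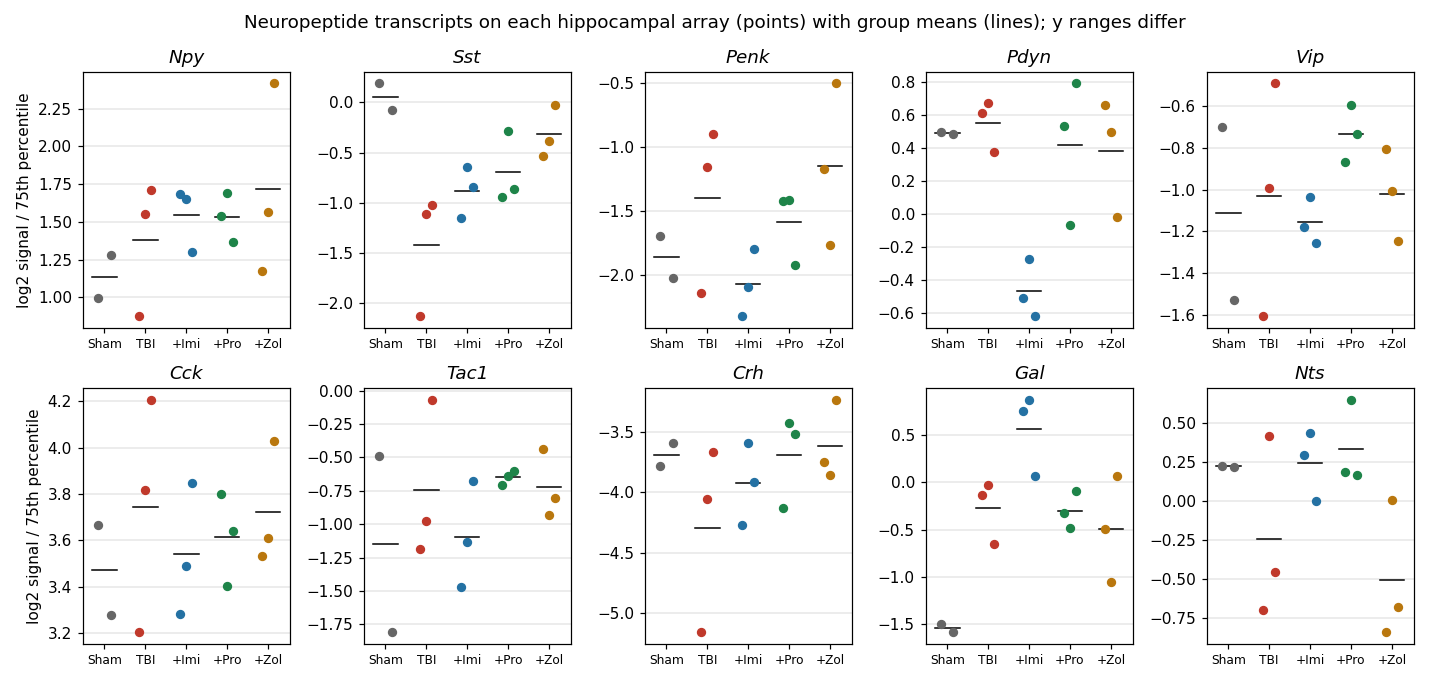
Log2 level (signal over the array's 75th percentile, y axis, range set per gene) of the lead probe of 10 neuropeptide genes on each of the 14 arrays, by group on the x axis; points are arrays in replicate order and lines are group means. Sst has its highest mean in Sham, Gal lies lowest in Sham, and Pdyn lies lowest in the 3 imipramine arrays.

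The comparison of TBI with Sham asks which precursors differ 24 h after injury. Sst was lower and Gal was higher after injury, and the other 8 precursors were not called. These 2 of 10 genes stand beside 16.6% of all probes called in the same comparison, 8.3% higher and 8.32% lower. The median difference of the 10 genes was 0.16.

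Sst encodes somatostatin, an inhibitory peptide of dendrite-targeting interneurons. Its level was 0.19 and -0.08 in the 2 Sham arrays and -2.13, -1.11 and -1.02 in TBI replicates 1 to 3. All 3 injured arrays lay below both Sham arrays, and TBI replicate 1 lay furthest below. Sst fell by 1.47 on the log2 scale (SE 0.32, 95% confidence interval -2.16 to -0.79, 2.78-fold, adjusted p = 0.00847). Without TBI replicate 1 the difference was -1.12 and still called, with an adjusted p of 0.0135, whereas without Sham replicate 1 it was -1.34 with an adjusted p of 0.0731.

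Gal encodes galanin, a peptide induced in injured neurons that acts on the receptors Galr1 to Galr3. Its level was -1.50 and -1.58 in Sham and -0.13, -0.03 and -0.65 in TBI. The 2 Sham arrays differed by less than any of them differed from an injured array. Gal rose by 1.27 (SE 0.31, 95% confidence interval 0.59 to 1.95, 2.41-fold, adjusted p = 0.0172). The other Gal probe rose by 1.20 with an adjusted p of 0.0139, and the 2 probes correlated at r = 0.99 over the 14 arrays. The adjusted p for Gal was 0.081 without Sham replicate 1, 0.101 without Sham replicate 2 and 0.0582 without TBI replicate 2, with differences of 1.31, 1.23 and 1.15.

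Among the other interneuron peptides, Npy, whose product neuropeptide Y dampens glutamate release, was at 0.996 and 1.28 in Sham and at 0.88, 1.55 and 1.71 in TBI. The injured arrays spanned both Sham values, and the difference was 0.24 (95% confidence interval -0.46 to 0.95, adjusted p = 0.66). Vip, the precursor of vasoactive intestinal peptide of interneuron-selective interneurons, was at -0.70 and -1.53 in Sham and at -1.60, -0.99 and -0.49 in TBI. Its difference of 0.08 (95% confidence interval -0.56 to 0.72) was smaller than the gap between the 2 Sham arrays, and without Sham replicate 2 it was -0.33. Cck, the precursor of cholecystokinin of a class of basket cells and of some pyramidal cells, was at 3.67 and 3.28 in Sham and at 3.20, 3.82 and 4.21 in TBI. Its groups overlapped, with a difference of 0.27 (95% confidence interval -0.33 to 0.87).

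The 2 opioid precursors also overlapped between TBI and Sham. Penk, which yields the enkephalins, was at -1.70 and -2.02 in Sham and at -2.14, -1.15 and -0.89 in TBI, a difference of 0.46 (95% confidence interval -0.37 to 1.30). Pdyn, which yields the dynorphins of the mossy fibres, was at 0.50 and 0.48 in Sham and at 0.61, 0.67 and 0.37 in TBI. The difference of 0.06 for Pdyn (95% confidence interval -0.48 to 0.60) leaves room for a change of that size in either direction.

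The last 3 precursors overlapped between TBI and Sham as well. Tac1, the precursor of substance P, was at -0.49 and -1.81 in Sham and at -1.18, -0.97 and -0.07 in TBI. Nts, the precursor of neurotensin, was at 0.22 in both Sham arrays and at -0.70, 0.41 and -0.45 in TBI. Crh encodes corticotropin-releasing hormone, made in the hippocampus by interneurons, and was at -3.78 and -3.59 in Sham and at -5.16, -4.05 and -3.67 in TBI. Crh was above background on 13 of 14 arrays, and the exception was TBI replicate 1, its lowest value. The differences were 0.41 for Tac1 (95% confidence interval -0.43 to 1.25), -0.47 for Nts (-1.16 to 0.22) and -0.61 for Crh (-1.43 to 0.22), and none was called. Without Sham replicate 2, its lowest array, the difference for Tac1 was -0.25.

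TBI replicate 1 was the lowest of its group for 8 of the 10 genes and TBI replicate 3 the highest for 7. In Sham, replicate 1 was the higher array for 8 of the 10 genes. The median log2 level of the whole array was also lowest on TBI replicate 1, at -2.367 against -2.074 on replicate 2, and highest on TBI replicate 3. The Sham arrays had medians of -2.189 and -2.187. Deviations within a group were thus shared by many of the precursors, and in TBI they went with the level of the whole array. Such ranks were not counted over all probes, so they cannot be read as particular to the precursors. The part of these deviations in the differences was not tested beyond leaving out each array.

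Markers of the cells that could carry these changes were read beside them. Of 15 interneuron markers 10 were measured, and in TBI against Sham 0 rose and 1 fell. The one that fell was Lhx6, a transcription factor of interneurons from the medial ganglionic eminence. Of the 10 markers 2 were higher in TBI, and Pvalb, not called, had means of 1.92 in Sham and 1.72 in TBI. Lhx6 was at -1.74 and -1.67 in Sham and at -2.64, -2.37 and -2.21 in TBI, so that it fell by 0.70 (SE 0.18, adjusted p = 0.0202), and its adjusted p was 0.0862 without Sham replicate 1 and 0.121 without Sham replicate 2. The median difference of the 10 markers was -0.22, and Gad1 and Slc32a1, which mark GABAergic cells at large, differed by -0.21 and -0.14 with adjusted p-values of 0.546 and 0.685. The summed level of the 13 interneuron markers with a probe, on the linear scale, was 12.3 to 12.6 in Sham and 8.10 to 13.6 in TBI. Summed levels here and below include genes that did not pass the filter, and brighter probes weigh more in them. Among the 8 measured principal neuron markers 0 rose and 1, Pou3f1, fell, by 0.66 (SE 0.21, adjusted p = 0.0475), which without Sham replicate 2 became -0.33 with an adjusted p of 0.431. The part of these cell types in the Sst result was not tested.

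Genes known to be induced in damaged neurons were read in the same comparison. Of 7 measured neuronal injury genes 4 rose and 0 fell in TBI against Sham, beside 8.3% of all probes higher and 8.32% lower. Csrp3 and Sprr1a passed the filter on dim probes through injured groups alone. The count was therefore tilted towards a rise and is a description only. Atf3, a transcription factor, rose by 2.78 (SE 0.48, adjusted p = 0.00263) and Gadd45a, a DNA damage response gene, by 2.55 (SE 0.38, adjusted p = 0.00113). Csrp3 and Sprr1a, both induced in axotomised neurons, were not well above background on either Sham array, and were at least 3.91-fold and at least 4.26-fold higher in TBI. These bounds set the TBI mean against the lowest signal above background on each Sham array, or the probe's own signal where that was higher. The adjusted p was 0.000277 for Csrp3 and 0.0179 for Sprr1a, and with normexp Atf3 was at 1.69 (adjusted p = 0.00453), Csrp3 at 0.92 (adjusted p = 0.0182) and Sprr1a at 0.87 (adjusted p = 0.106). The adjusted p of Sprr1a was 0.0596 without Sham replicate 1 and 0.132 without Sham replicate 2.

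**Figure D2:**
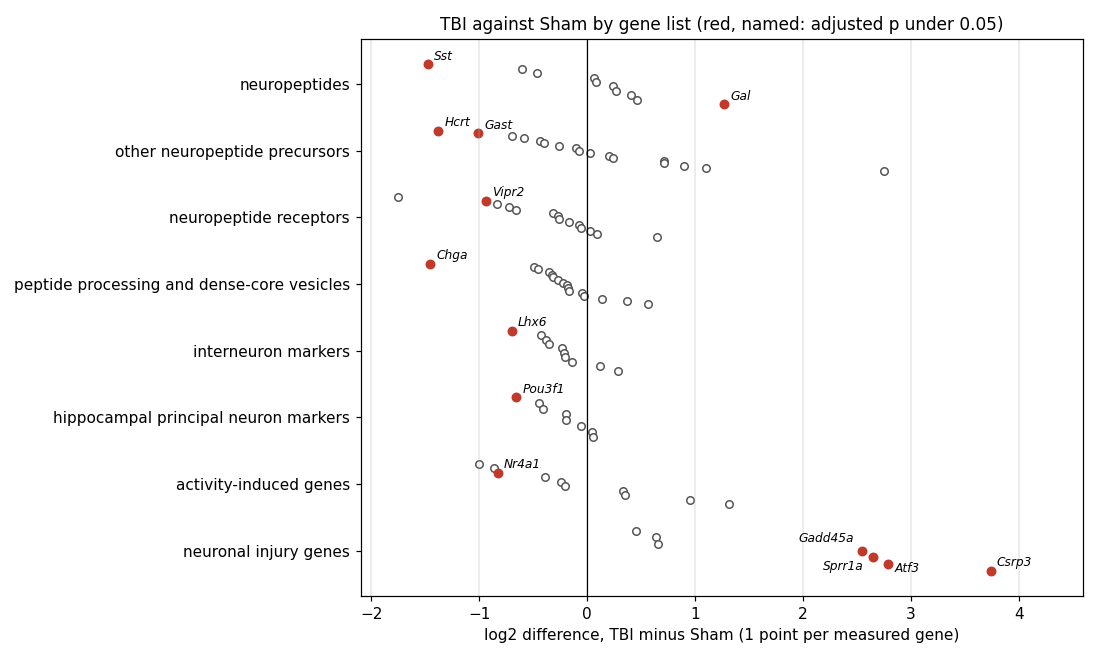
Log2 difference of TBI minus Sham (x axis) for each measured gene of 8 gene lists (y axis); red points with names passed an adjusted p of 0.05 and open points did not. Sst and Gal lie at opposite ends of the neuropeptides at -1.47 and 1.27, and Csrp3 and Sprr1a were not above background in Sham, so that their points are fitted differences and not bounds.

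Receptors for these peptides were measured less completely. Of 23 receptor genes 14 passed the filter, and 1 fell and 0 rose in TBI against Sham. Vipr2, a receptor for vasoactive intestinal peptide, was at -2.96 and -3.06 in Sham and at -4.26, -3.77 and -3.82 in TBI. All 3 injured arrays were lower than both Sham arrays, and the difference was -0.94 (SE 0.25, adjusted p = 0.0248). The adjusted p for Vipr2 was 0.127 without Sham replicate 1, 0.101 without Sham replicate 2 and 0.0629 without TBI replicate 1. With another background correction (normexp) the difference for Vipr2 was -0.45 with an adjusted p of 0.113.

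The receptors of the changed peptides were not called. Of the somatostatin receptors, Sstr1 to Sstr4 differed by 0.03, -0.32, -0.27 and -0.17 with adjusted p-values of 0.976, 0.412, 0.385 and 0.509. Of the galanin receptors, Galr2 was measured and differed by 0.65 (adjusted p = 0.0769), while Galr1 and Galr3 did not pass the filter. The opioid receptors Oprm1, Oprd1 and Oprk1 did not pass it either, so that no receptor of the Pdyn and Penk products could be followed. These genes were chosen to be named after their values were seen.

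Of 17 genes of peptide processing and dense-core vesicles 16 were measured, and in TBI against Sham 1 fell and 0 rose. Chga, the vesicle protein chromogranin A, was at -2.16 and -2.18 in Sham and at -4.18, -3.43 and -3.27 in TBI. It fell by 1.46 (SE 0.30, adjusted p = 0.00681), with all 3 injured arrays more than 1 below both Sham arrays. With normexp the difference for Chga was -0.74 (adjusted p = 0.0344). The prohormone convertases Pcsk1 and Pcsk2, which cut the precursors, differed by -0.46 and -0.19 with adjusted p-values of 0.417 and 0.471.

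Of 20 other neuropeptide precursors 17 were measured and 2 fell in TBI against Sham. Hcrt, the hypocretin precursor, fell by 1.38 (SE 0.18, adjusted p = 0.00056) and was near its detection limit, above background on 12 of 14 arrays. Gast, the gastrin precursor, fell by 1.01 (SE 0.19, adjusted p = 0.00474). Both are dim and are not known as products of hippocampal cells. Of 8 hypothalamus markers 7 were measured, and in TBI against Sham 2 fell, Hcrt and Ghrh, and 0 rose. Of the 7, 3 were higher in TBI, up to 2.75 for Trh, which was not called. Ghrh, above background on 9 of 14 arrays, fell by 1.07 (adjusted p = 0.0394). Its adjusted p was 0.0849 or more without Sham replicate 1, Sham replicate 2 or TBI replicate 1, with differences of -0.92, -1.23 and -0.74. With normexp the differences were -0.72 for Hcrt (adjusted p = 0.00276) and -0.48 for Ghrh (adjusted p = 0.0267).

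Markers of neighbouring tissue were read for the same reason. Of 8 thalamus markers 5 were measured and 2 rose, Prkcd by 1.21 (adjusted p = 0.0492) and Lef1 by 0.96 (adjusted p = 0.0427). Each lost its call without most single arrays, down to 0.86 (adjusted p = 0.327) for Prkcd without Sham replicate 2 and 0.66 (adjusted p = 0.289) for Lef1 without Sham replicate 1. With normexp Lef1 was at 0.16 (adjusted p = 0.614) and Prkcd at 0.93 (adjusted p = 0.0553). Of 8 striatum markers 6 were measured and 1, Pde10a, fell, by 0.60 (adjusted p = 0.032, and 0.168 without Sham replicate 2). Of 9 choroid plexus markers 3 were measured and 0 were called, and the 2 furthest from 0 were Aqp1 at 0.82 and Ttr at -0.33. The summed level of all 9 on the linear scale was 0.61 to 29.3 in Sham and 0.70 to 28.8 in TBI, so that arrays of 1 group differed widely in these markers. Of 7 blood markers 6 were measured and 0 were called, the furthest being Hbb at -0.46 and Ahsp at -0.39, with summed levels of 45.8 to 60.7 in Sham and 41.8 to 52.6 in TBI.

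Of 13 activity-induced genes 10 were measured, and in TBI against Sham 0 rose and 1, Nr4a1, fell, by 0.83 (SE 0.17, adjusted p = 0.00603). Members that were not called differed in both directions, from -1.001 for Egr1 to 1.32 for Fos. The summed level of the list was 4.96 to 5.36 in Sham and 3.59 to 5.67 in TBI.

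The mean of the 4 injured groups against Sham asks how the 12 injured rats differed from Sham on average, which need not hold in each group. It uses the Sham and TBI arrays of the comparison above, so that agreement with it is not independent. The same 2 genes were called, against 20.4% of all probes, 14.3% higher and 6.15% lower. Gal was higher by 1.41 (SE 0.26, adjusted p = 0.0033) and all 12 injured arrays lay above both Sham arrays. Sst was lower by 0.88 (SE 0.26, adjusted p = 0.0337), with injured arrays from -2.13 to -0.03 that reached the Sham range, and the highest was Zoloft replicate 3. Sst lost its call without Sham replicate 1 (-0.75, adjusted p = 0.236), without Sham replicate 2 (-1.02, adjusted p = 0.128) and without imipramine replicate 1 (-0.85, adjusted p = 0.0505).

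In the mean of the 4 injured groups 3 of the 17 other precursors rose, Trh, Calcb and Pnoc, and 2 fell, Hcrt and Gast. Hcrt fell by 1.31 (SE 0.15, adjusted p = 0.000192) and Gast by 0.71 (SE 0.16, adjusted p = 0.0092). Pnoc, the precursor of nociceptin, an opioid-like peptide, rose by 1.04 (SE 0.21, adjusted p = 0.00463), and Calcb, a calcitonin gene-related peptide, rose by 1.21 (SE 0.26, adjusted p = 0.00662). Without Sham replicate 1 they were at 0.77 (adjusted p = 0.105) for Pnoc and 0.87 (adjusted p = 0.132) for Calcb. With normexp Calcb was at 0.63 (adjusted p = 0.0257). Trh, the precursor of thyrotropin-releasing hormone, was at -6.52 and -5.64 in Sham, where 1 of 2 arrays was above background, and at -4.63, -2.80 and -2.55 in TBI. It was at -0.05, 0.67 and -3.18 with imipramine, -3.65, -3.13 and -3.53 with Prozac and -3.93, -0.10 and 1.39 with Zoloft. All 12 injured arrays were higher than both Sham arrays, and the mean difference was 3.96 (SE 1.13, adjusted p = 0.0274). Its adjusted p was 0.195 without Sham replicate 1 and 0.124 without Sham replicate 2, and with normexp the difference for Trh was 2.22 (adjusted p = 0.0959).

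The comparisons of each drug with TBI ask whether an antidepressant given after injury moved the precursors. Pdyn was lower with imipramine than in TBI, and no other precursor was called with any drug. Imipramine called 1 of 10 genes against 2.85% of all probes, of which 2.82% were higher and 0.0289% lower. Prozac called 0 of 10 genes against 0.00577% of all probes and Zoloft 0 of 10 against 1.38%, 1.16% higher and 0.219% lower. By limma's unadjusted p under 0.05 the counts were 2, 1 and 1 of 10, beside 3417, 1742 and 2635 of all 17322 probes. The methods' t-test at its own threshold with a fold limit gave 1, 0 and 1 of the 10 genes.

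Pdyn was at -0.51, -0.27 and -0.62 in the 3 imipramine arrays. All 3 lay below every Sham, TBI, Prozac and Zoloft array, of which the lowest was Prozac replicate 2 at -0.07. Against TBI, Pdyn fell by 1.02 (SE 0.22, 95% confidence interval -1.50 to -0.54, adjusted p = 0.0326), and by 1.22 beyond the shift of the whole array. With Prozac it was at 0.53, -0.07 and 0.79 and differed from TBI by -0.13 (95% confidence interval -0.61 to 0.35). With Zoloft it was at 0.66, 0.50 and -0.02 and differed by -0.17 (95% confidence interval -0.65 to 0.31).

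The Pdyn call was close to the threshold. Its adjusted p was 0.13 and 0.0788 without TBI replicate 1 or 2, and 0.123, 0.0912 and 0.0777 without imipramine replicate 1, 2 or 3, with differences from -1.12 to -0.94. With slide as a fixed block the difference was -0.84 (SE 0.43, adjusted p = 0.822). On the second slide, where no injury-only array lay, Pdyn was at -0.47 with imipramine against 0.36 with Prozac and 0.38 with Zoloft, a comparison added after the data were seen. The summed level of the principal neuron markers was 7.60 to 9.13 in TBI and 7.74 to 8.78 with imipramine. The sum does not follow granule cells on their own, since Prox1 and Tdo2 were above background on 0 arrays. The part of these cells in the Pdyn result was not tested.

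Sst was higher in each drug group than in TBI but was not called. Its levels were -1.16, -0.65 and -0.84 with imipramine, -0.94, -0.29 and -0.86 with Prozac and -0.53, -0.39 and -0.03 with Zoloft. All 3 Prozac arrays and all 3 Zoloft arrays lay above all 3 TBI arrays, while imipramine replicate 1 did not. The differences from TBI were 0.54 (95% confidence interval -0.08 to 1.15, adjusted p = 0.312), 0.72 (0.11 to 1.34, adjusted p = 0.437) and 1.103 (0.49 to 1.72, adjusted p = 0.078). For Zoloft the adjusted p was 0.0442 after quantile normalization, 0.0407 with the percentile taken over all probes and 0.04 on the deposited series table. Without TBI replicate 1 the Zoloft difference in Sst was 0.75 (adjusted p = 0.15), and with slide as a fixed block it was 0.73 (SE 0.53, adjusted p = 0.998).

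Gal had its highest mean with imipramine, at 0.76, 0.87 and 0.06, all above the TBI arrays. The difference from TBI was 0.83 (SE 0.28, adjusted p = 0.137) and for the other probe 0.95 (SE 0.25, adjusted p = 0.0668), so that neither was called. With Prozac Gal was at -0.32, -0.49 and -0.10 and with Zoloft at -0.49, -1.05 and 0.07, differences from TBI of -0.03 (95% confidence interval -0.64 to 0.58) and -0.22 (-0.83 to 0.39).

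The other 7 genes overlapped between TBI and each drug. Npy was at 1.68, 1.65 and 1.30 with imipramine, 1.54, 1.69 and 1.37 with Prozac and 1.17, 1.57 and 2.42 with Zoloft. Penk was at -2.32, -2.09 and -1.80 with imipramine, -1.42, -1.41 and -1.92 with Prozac and -1.17, -1.77 and -0.50 with Zoloft. For both genes the widest spread among the drug groups was with Zoloft, where replicate 3 was the highest array.

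Cck was at 3.28, 3.49 and 3.85 with imipramine, 3.80, 3.40 and 3.64 with Prozac and 3.53, 3.61 and 4.03 with Zoloft. Vip was at -1.18, -1.04 and -1.25 with imipramine, -0.87, -0.60 and -0.73 with Prozac and -0.81, -1.01 and -1.25 with Zoloft. Differences from TBI stayed between -0.20 and 0.30 for these 2 genes.

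Tac1 was at -1.47, -1.13 and -0.68 with imipramine, -0.71, -0.64 and -0.60 with Prozac and -0.44, -0.93 and -0.80 with Zoloft. Crh was at -4.27, -3.59 and -3.92 with imipramine, -4.13, -3.43 and -3.51 with Prozac and -3.75, -3.86 and -3.23 with Zoloft. Nts was at 0.30, 0.43 and 0.00 with imipramine, 0.18, 0.65 and 0.17 with Prozac and -0.84, 0.01 and -0.68 with Zoloft. By the probes that stood for these 3 genes, the differences from TBI furthest from 0 were 0.68 for Crh with Zoloft (95% confidence interval -0.06 to 1.42, adjusted p = 0.374), 0.60 for Crh with Prozac (-0.13 to 1.34, adjusted p = 0.576) and 0.58 for Nts with Prozac (-0.04 to 1.20, adjusted p = 0.527). The second Crh probe was further from TBI with Prozac, at 0.94 (95% confidence interval 0.22 to 1.66, adjusted p = 0.381), and was not called. With imipramine and Zoloft that probe differed by 0.56 and 0.57. The second Tac1 probe differed from TBI by -0.45, 0.08 and -0.32 with imipramine, Prozac and Zoloft.

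No gene of the receptor, processing, other precursor or cell marker lists was called in any drug comparison with TBI. Of 9 choroid plexus markers 3 were measured, Ttr, Folr1 and Aqp1. All 3 were higher than in TBI with imipramine, by 2.40 to 3.02, and with Zoloft, by 1.87 to 2.83, with overlapping arrays and adjusted p-values of 0.29 to 0.678. The summed level of this list on the linear scale was 102, 107 and 1.81 on imipramine replicates 1 to 3, which were the arrays with Gal at 0.76, 0.87 and 0.06. It was 88.3, 0.222 and 0.224 with Prozac and 69.8, 102 and 1.79 with Zoloft, where Gal was at -0.32, -0.49 and -0.10 and at -0.49, -1.05 and 0.07. In TBI the sum was 0.699, 1.94 and 28.8 beside Gal at -0.13, -0.03 and -0.65. The part of this tissue in the Gal values was not tested.

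**Figure D3:**
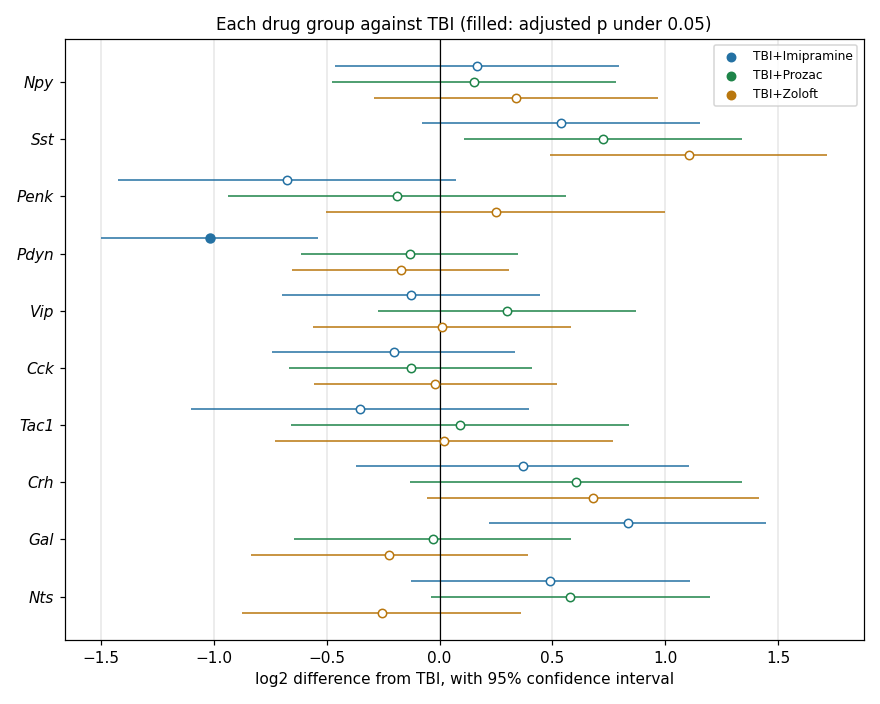
Log2 difference of each drug group from TBI (x axis) for the 10 genes (y axis), with 95% confidence intervals of the limma fit; filled points passed an adjusted p of 0.05. Pdyn with imipramine at -1.02 is the 1 filled point, and the Sst intervals with Prozac and Zoloft lie above 0 before adjustment.

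The comparisons of each drug group with Sham ask how far the treated, injured hippocampus stood from the uninjured one. They share the 2 Sham arrays with each other and with TBI against Sham, so that agreement among them is not independent. Imipramine called 3 of 10 genes against 23.4% of all probes, 19.8% higher and 3.6% lower. Prozac called 1 of 10 against 14.9%, 11.7% higher and 3.16% lower, and Zoloft 0 of 10 against 5.95%, 4.16% higher and 1.8% lower. By limma's unadjusted p under 0.05 the counts were 3, 2 and 2 of 10, beside 6333, 5174 and 3869 of all 17322 probes. The methods' t-test with its fold limit gave 3, 1 and 0 of the 10 genes.

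Gal was 2.10 higher than Sham with imipramine (SE 0.31, adjusted p = 0.00088), 1.24 higher with Prozac (SE 0.31, adjusted p = 0.0222) and 1.05 higher with Zoloft (SE 0.31, adjusted p = 0.0721). Beyond the shift of the whole array the first 2 were 1.92 and 1.096. All 9 drug arrays lay above both Sham arrays, and the second Gal probe passed with Zoloft as well, at 1.07 (adjusted p = 0.0456). For Prozac the adjusted p of Gal was 0.0989 and 0.119 without Sham replicate 1 or 2, and 0.0581 and 0.0697 without Prozac replicate 1 or 3. For Zoloft Gal was called without Zoloft replicate 2, at 1.33 (adjusted p = 0.0323).

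Sst was 0.94 lower than Sham with imipramine (SE 0.32, adjusted p = 0.0498), or 1.12 lower beyond the shift of the whole array. With Prozac it differed by -0.75 (SE 0.32, adjusted p = 0.133) and with Zoloft by -0.37 (SE 0.32, 95% confidence interval -1.06 to 0.32, adjusted p = 0.532). The imipramine call was lost in 14 of 25 alternatives, among them without Sham replicate 1 (-0.80, adjusted p = 0.224) and without imipramine replicate 1 (-0.80, adjusted p = 0.151). The Prozac difference passed without TBI replicate 1, which left it at -0.75 and lowered the shared spread (adjusted p = 0.0418).

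Pdyn was 0.96 lower than Sham with imipramine (SE 0.25, adjusted p = 0.016), and the difference beyond the shift of the whole array was -1.14. Without Sham replicate 1 or 2 the adjusted p was 0.0809 or 0.082, with differences of -0.95 and -0.96. With Prozac and Zoloft Pdyn differed from Sham by -0.07 (95% confidence interval -0.61 to 0.47) and -0.11 (-0.65 to 0.43). Nts with Zoloft differed from Sham by -0.73 (95% confidence interval -1.42 to -0.04, adjusted p = 0.202) and was not called. The second Npy probe was 0.78 higher than Sham with Prozac (95% confidence interval 0.02 to 1.55, adjusted p = 0.159) and was not called, beside 0.39 for the brighter probe. For Tac1 the 2 probes differed in direction with Zoloft against Sham, at 0.43 and, for the second, -0.06.

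Receptors were read in the same comparisons with Sham. With imipramine 3 of 14 fell, with Prozac 0 and with Zoloft 1. Vipr2 fell by 0.90 with imipramine (SE 0.25, adjusted p = 0.0237, and -1.08 beyond the shift of the whole array) and by 1.16 with Zoloft (SE 0.25, adjusted p = 0.0205). Cckbr, the brain cholecystokinin receptor, fell by 1.19 with imipramine (SE 0.39, adjusted p = 0.0443, and -1.37 beyond the shift). Tacr3, the neurokinin B receptor, was not well above background on any imipramine array and was at least 2.58-fold lower than in Sham (adjusted p = 0.0252, with measured means -2.80 apart beyond the shift).

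Of the 17 other precursors 3 rose and 2 fell with imipramine, 2 rose and 2 fell with Prozac, and 3 rose and 1 fell with Zoloft. Trh rose by 5.23 with imipramine (SE 1.35, adjusted p = 0.0158, and 5.05 beyond the shift) and by 5.20 with Zoloft (SE 1.35, adjusted p = 0.0433), from a Sham level above background on 1 of 2 arrays. Pnoc rose with all 3 drugs, by 1.38, 1.002 and 1.08 with imipramine, Prozac and Zoloft, and Calcb by 1.77, 1.13 and 1.22. Beyond the shift the imipramine and Prozac values were 1.199 and 0.86 for Pnoc and 1.58 and 0.99 for Calcb. Hcrt fell with all 3, by 0.92, 1.19 and 1.74, and Gast fell with imipramine, by 0.59, and Prozac, by 0.80. Beyond the shift these were -1.101 and -1.33 for Hcrt and -0.77 and -0.95 for Gast. Of the processing genes Chga alone was called, at -1.38, -1.47 and -1.31 with the 3 drugs, and at -1.56 and -1.61 beyond the shift with imipramine and Prozac.

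**Figure D4:**
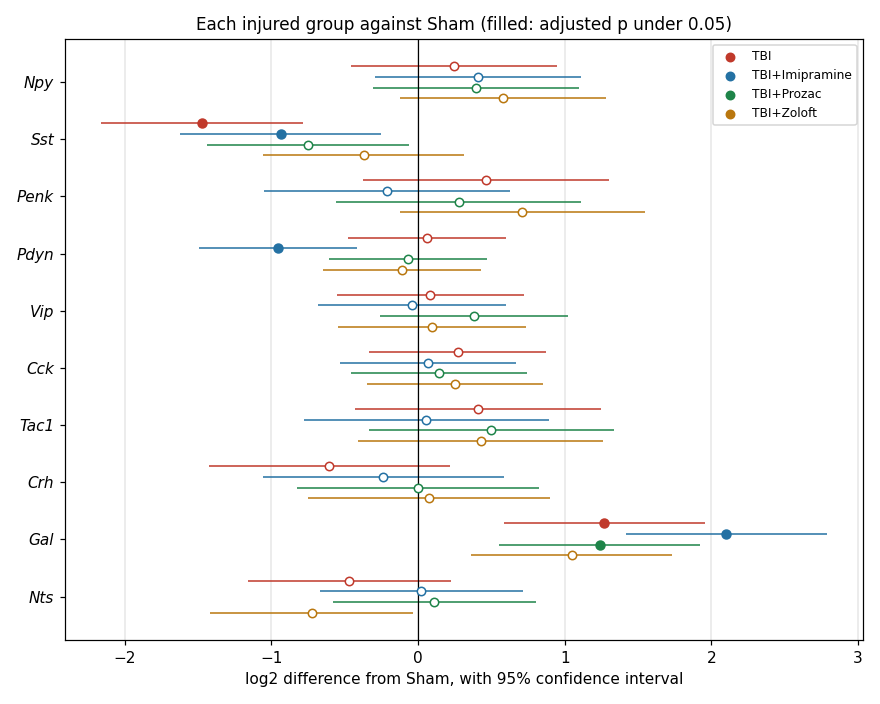
Log2 difference of each injured group from Sham (x axis) for the 10 genes (y axis), with 95% confidence intervals of the limma fit; filled points passed an adjusted p of 0.05. Gal lies to the right of 0 in all 4 groups, from 1.05 to 2.10, and Sst to the left, from -1.47 to -0.37.

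A test among the 3 drugs asks whether they differed from each other. An F test of limma called 0 of 10 genes against 3.18% of all probes. Its unadjusted p was under 0.05 for 3 of 10 genes, beside 3894 of all 17322 probes. These 3 genes were Pdyn (adjusted p = 0.0603), Gal (adjusted p = 0.0838) and Nts (adjusted p = 0.154). Pdyn passed without Prozac replicate 2 (adjusted p = 0.0387) or Zoloft replicate 3 (adjusted p = 0.0474), and Gal without imipramine replicate 3 (adjusted p = 0.0453). On the 8 drug arrays of the second slide alone the adjusted p was 0.169 for Pdyn, 0.181 for Gal and 0.164 for Nts, with mean levels of Gal of 0.56 with imipramine, -0.29 with Prozac and -0.49 with Zoloft.

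Zoloft replicate 3 stood apart in its activity-induced genes. Their summed level on the linear scale was 18.2 on that array and 3.59 to 7.37 on the other 13. On it Arc was at 2.07, against -1.26 to 0.29 elsewhere, and Inhba at 1.30, against -3.75 to -1.40. The array was the highest of its group for 6 of the 10 precursors, among them Npy and Penk, and had the highest Npy value of all 14 arrays. Without it Sst differed from TBI by 0.96 with Zoloft (adjusted p = 0.216) and Gal from Sham by 0.77 (adjusted p = 0.161). Arc and Inhba were chosen to be named after their values were seen, and the part of this array's activity genes in the precursor values was not tested.

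The genes whose levels followed a precursor most closely over the 14 arrays were sought among 8704 named genes above background on all of them, which left Crh out. The arrays share group differences and a scaling, so these correlations are descriptions. Npy followed Vgf, a secreted granin-like protein, at r = 0.90. Gal followed Vasp, an actin regulator, at r = 0.97, with Enpp3 and Ube2j1 at r = 0.96 each. Sst followed Kcnab1, a potassium channel subunit, at r = 0.92, with Wfdc10a at r = 0.92 and Per3 at r = 0.91. Tac1 followed Gap43, a growth cone protein, at r = 0.91, with the somatostatin receptor Sstr1 at r = 0.88 and Grin3a at r = 0.87.

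Pdyn had no close match, the highest being Tspyl4 at r = 0.71, before Gzmm and Map3k13. Penk followed Ripor1, Hs3st2 and Gpsm1 at r = 0.89 to 0.93, and Vip followed Nol4, Cbln2 and Dscam at r = 0.90 to 0.95. Cck followed Pcsk4, Kcnt1 and Pde9a at r = 0.89 to 0.92, and Nts followed Arg2, Hdac10 and Cadm2 at r = 0.84 to 0.87. After Vgf, Npy followed Papss2 at r = 0.89 and Smad1 at r = 0.88. Among the precursors themselves, Sst and Crh had the highest correlation, r = 0.82 in levels and 0.89 after group means were removed.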

How the data were processed

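Hippocampal RNA of 14 rats was labelled with 1 dye and read on Agilent rat expression arrays. Intensity values were deposited by the authors as spot signals from Agilent Feature Extraction, per the file headers with background and spatial trend removed, together with other values, 0 or 1 flags, per spot. The deposited series table, also intensity, held linear values with medians of 0.081 to 0.0897 per array, of which 97.79% to 99.82% lay within 5% of the scanner signal divided by 1 constant per array. The study's methods state scaling to the 75th percentile and an unadjusted t-test with a fold limit of 1.2. The 14 miRNA arrays were not used here.

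Spots flagged as outliers and control spots were left out, spots of a probe were averaged, and log2 was taken after division by the 75th percentile of probes above background (over 0.5 of spots). A probe was kept where all arrays of some group had it above background. Accessions were matched to symbols of the RefSeq table of GRCr8, which named 18643 of 30367 probes; the file headers name build rn4, and of GRCr8 only promoter sequences and their positions are printed. limma 3.58.1 in R 4.3.3 fitted 5 groups on 14 arrays and was tested on simulated data. Promoters were read and figures drawn with Python 3.11.15 and matplotlib 3.10.9.

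The precursors and all gene lists were chosen with earlier results of these data known. By rule, every precursor was given on every array. Of each other list the genes past the threshold in TBI against Sham were named, at most 4, or the 2 with the largest difference where none passed. In the other comparisons the lists were reported in part, and a list not mentioned there may hold called genes. For example, 4 neuronal injury genes rose and 1 interneuron marker fell in the injured mean, and 1 principal neuron marker fell with Zoloft against Sham. Likeness was the 3 highest Pearson correlations. P-values measure the spread between rats, and precision is limited by 2 or 3 arrays per group. Normexp, an alternative, used median signals because the scanner files used here hold no mean signal. Other alternatives were quantile normalization, the percentile over all probes, series-table values, filters on dim probes, outlier spots kept, the methods' t-test, slide and replicate blocks, and leaving out each array. Replicate numbers did not pair rats.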

Additional observations from a re-analysis of the deposited data

How the results depend on the processing

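Each of the 80 differences of a precursor between groups was recomputed under the alternatives that could be fitted. The 9 called differences, and all 15 with an unadjusted p under 0.05, kept their direction, whereas 38 of the other 65 turned in at least 1 alternative, the furthest from 0 being 0.50 (Tac1, Prozac against Sham). For TBI against Sham these were Vip without Sham replicate 2 (-0.33) or TBI replicate 3 (-0.18), Tac1 without Sham replicate 2 (-0.25) and Pdyn with normexp (-0.05). Leaving out 1 array gave 0 to 2 precursors called for TBI against Sham, 1 to 2 for the mean of the injured groups, 0 to 1 for imipramine against TBI, 1 to 3 for imipramine against Sham, 0 to 2 for Prozac against Sham, 0 to 1 for Zoloft against Sham and 0 to 1 among the drugs. Prozac against TBI and Zoloft against TBI stayed at 0 in all of these. All probes called ranged from 13 to 591 for imipramine, 0 to 121 for Prozac and 1 to 381 for Zoloft against TBI. Among the drugs they ranged from 11 to 804. Against Sham the number of all probes called moved between these fits as well. A change in a count of precursors is therefore not particular to them. The methods' t-test with its fold limit gave 1 (Gal) for TBI against Sham, where Sst did not pass, and 1 (Sst) for Zoloft against TBI. After Benjamini-Hochberg it gave 0 for TBI, imipramine and Prozac against Sham, 0 for imipramine against TBI and 1 for the injured mean. Without a filter on dim probes 1 was called for the injured mean, 0 for imipramine against TBI and 0 for Prozac against Sham. With probes above background on all arrays 1 (Pdyn) was called among the drugs. Quantile normalization gave 0 for imipramine against TBI and 1 (Sst) for Zoloft against TBI, and the percentile over all probes and the series-table values each gave 1 (Sst) for Zoloft against TBI and 2 (Sst and Gal) for Prozac against Sham. Slide as a fixed block gave 0 for imipramine against TBI, and as a random block 1 (Gal) for Zoloft against Sham.

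Same-numbered arrays of different groups had deviations that correlated at -0.23 to 0.23 (26 pairs, 2 over 0.1), and 3 of 14 arrays correlated best with their own number, so the numbers were not taken as pairs. With the number as a replicate block, 0 precursors were called for imipramine against TBI (Pdyn -1.02, adjusted p = 0.0532), all probes called there went from 494 to 384, and the other counts of precursors did not change. With 2 Sham arrays on their own slide and scan day, no alternative separates slide or scan day from injury.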
